A study of Cavia porcellus with 10 samples.

Results

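The genes described here are those of elastin, 2 fibrillins, 5 fibulins and 2 emilins (ELN, Fbn1, FBN2, Fbln1, Fbln2, Fbln5, EFEMP1, EFEMP2, Emilin1 and Emilin2, spelled as in the deposited table) in the sclera, the tough outer coat of the eye. They were chosen by name, and each matched 1 line of the table, giving 10 of 17642 lines that carry a symbol. The libraries were RNA-seq of whole scleral tissue from male guinea pigs (Cavia porcellus) aged 2 to 3 weeks. In 5 libraries, 1 eye each, the animals had worn lenses on both eyes that induce nearsightedness (lens-induced myopia), and the other 5 came from untreated animals (control). No strain or genotype is given, and the tissue was taken whole, so a lower level can mean fewer cells that make a transcript or less of it per cell, which cannot be told apart. Which eyes came from the same animal is not stated, and the p-values therefore reflect only the spread between these libraries, which may be technical in part.

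Elastic fibres let a tissue stretch and recoil. Their core is elastin, laid down on a scaffold of microfibrils that are built from fibrillins. Short fibulins (Fbln5, EFEMP2) bring elastin to the microfibrils and to the enzymes that cross-link it, and emilins sit where elastin meets the microfibril. In the sclera such fibres run between collagen bundles.

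Elastin (ELN), both emilins, Fbln1, Fbln2 and Fbln5 fell in the myopic sclera, and their log2 fold changes ran from -1.88 in Emilin2 to -0.59 in Fbln5. Both fibrillins, EFEMP1 and EFEMP2 did not pass. In numbers, 6 of 10 members were called lower at an adjusted p of 0.05 (edgeR quasi-likelihood test, Benjamini-Hochberg adjustment over all 14683 genes tested), where 35.1% of all genes tested were called lower. None was called higher (0 of 10, against 36.9% of all genes), 0 were higher at an unadjusted p under 0.05, DESeq2 called 0 higher, and limma-voom with sample weights called 1 higher, EFEMP1. In the other direction 7 were lower at an unadjusted p under 0.05, the added gene being EFEMP2. DESeq2 and limma-voom also called 7 lower, where they called 5356 and 5462 of all 14683 genes lower. With total count alone 5 were lower and 2 higher, beside 2751 and 7633 of all genes. All 10 passed the filter on low counts, so none is missing from these counts. For the same 6 genes every myopia library lay below every control library, as did 28.0% of all genes tested (29.8% lay wholly above, 57.8% on either side). The median log2 fold change of the 10 was -0.83, beside 0.03 over all genes tested.

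**Figure D1:**
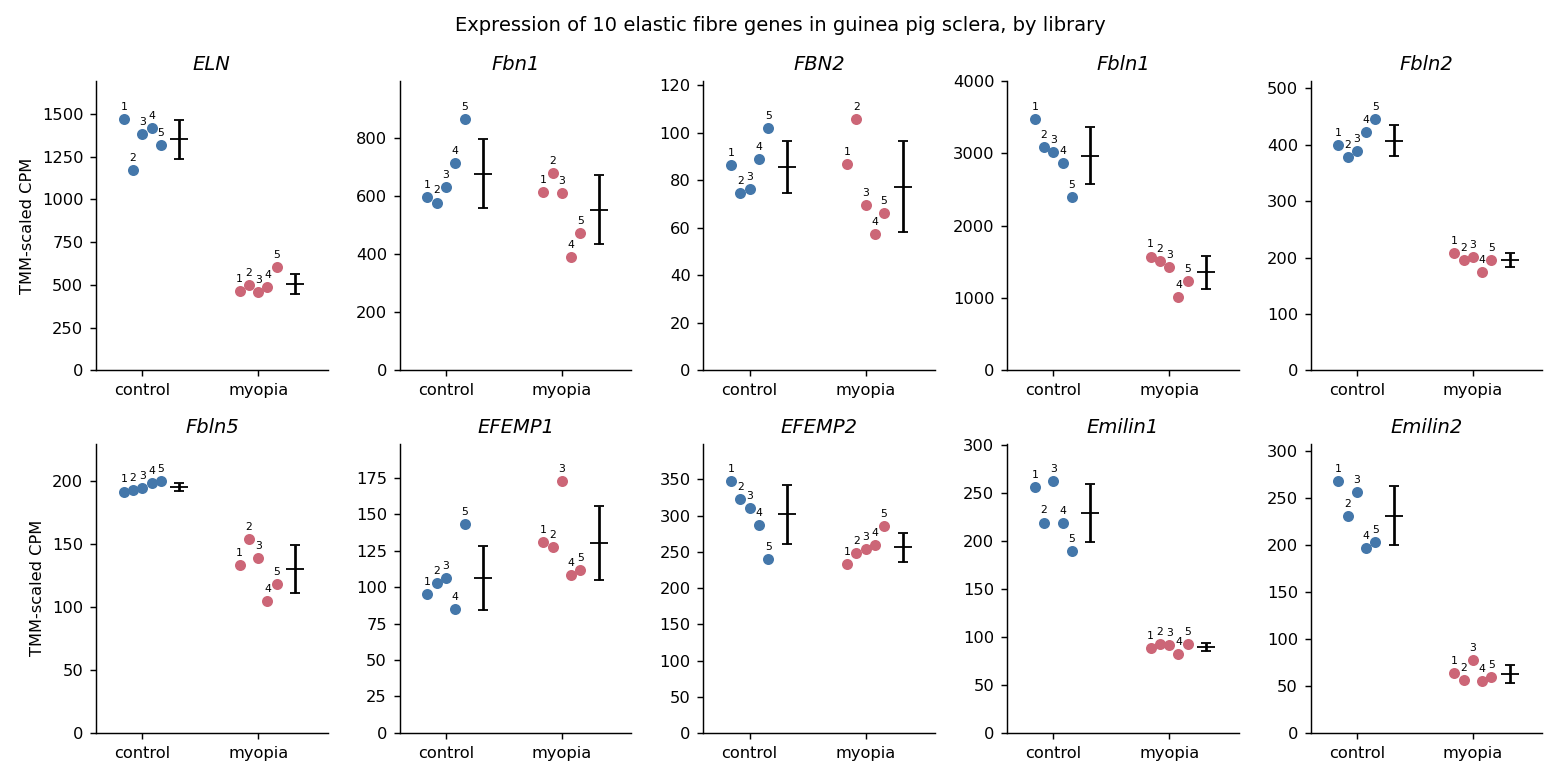
Expression of each gene in each library, in CPM scaled with TMM factors (vertical axis from 0, a scale of its own for each gene). Points are libraries with their numbers, and the bar beside each group is the mean with its SD (n = 5). ELN, Fbln1, Fbln2, Fbln5, Emilin1 and Emilin2 show no overlap between the groups, and the other genes do.

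Of all genes 71.9% were called different, and which are higher or lower depends on how libraries are scaled. Values below are CPM, counts relative to a library size that is scaled with TMM factors, which set the bulk of genes to no change. Without such factors, when only the total count was used, all genes had a median log2 fold change of 0.47, and 73.5% of calls were higher, against 51.2% with TMM factors. Under that scaling the log2 fold changes of Fbn1, FBN2 and EFEMP2 turned positive (0.13, 0.28 and 0.23), Fbln5 no longer passed (-0.15, adjusted p = 0.184), EFEMP1 and EFEMP2 passed as higher, and the other 5 calls stood. Another scaling moves all genes by nearly the same amount, so the distance of a gene from the median of all genes is nearly fixed by construction. For ELN that log2 distance was -1.45, for Fbln5 -0.62 and for EFEMP1 0.26 with TMM factors.

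**Figure D2:**
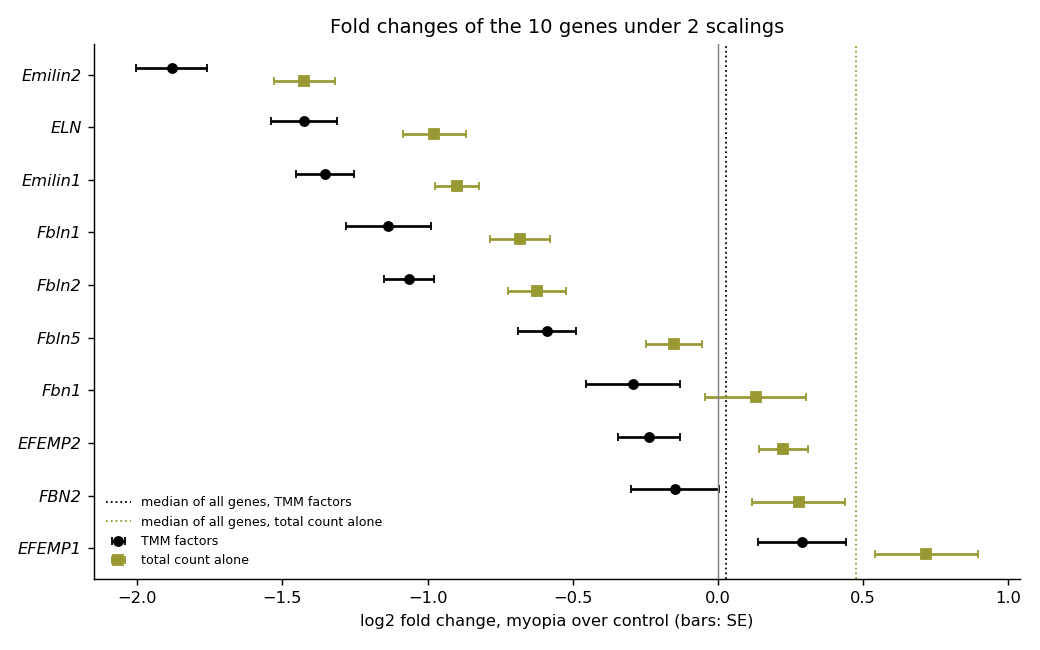
Log2 fold change of myopia over control for each gene with its SE, with TMM factors (circles) and with total count alone (squares). Dotted lines mark the median of all genes under each scaling, 0.03 and 0.47. All 10 genes lie further to the positive side with total count alone.

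Total counts per library were 32309258 to 35430797, and the smallest count of a member in any library was 2013, for which counting error alone is 2.23%. The TMM factors of control libraries lay between 0.777 and 0.968, those of myopia libraries between 1.11 and 1.25. Control libraries 4 and 5 stood nearest to the myopia libraries on the first principal component of all genes, which held 77.1% of the variance. Along it the control libraries lay in the order of their numbers, from -94.6 in control 1 to -24.6 in control 5, and their TMM factors rose in the same order. The cause of this order was not tested. Among the members, control 5 was the highest or the lowest control library for 8 of 10 genes, and myopia 4 was the lowest myopia library for 8 of 10. Without control libraries 4 and 5 together, 7 members were called lower and 1 higher, the additional ones being EFEMP2 (-0.34, adjusted p = 0.00299) and EFEMP1 (0.37, adjusted p = 0.0254). The same 2 genes were added without control 5 alone.

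ELN encodes tropoelastin, the soluble unit that is cross-linked into the core of the fibre. In control libraries 1 to 5 it stood at 1473, 1175, 1381, 1417 and 1320 CPM. In myopia libraries 1 to 5 it stood at 466, 501, 459, 488 and 604.5 CPM. The lowest control library was thus far above the highest myopia library, and the spread within each group was small beside the gap. The log2 fold change was -1.43 ± 0.11 (SE, n = 5 per group; adjusted p = 4.11e-07), and 4.08% of all genes tested had a lower one. Set against COL1A1, the alpha 1 chain of collagen I, in a comparison chosen after its values were seen, the log2 ratio of ELN to COL1A1 counts was -5.93 ± 0.15 in control and -6.14 ± 0.21 in myopia (SD, n = 5). COL1A1 itself had a log2 fold change of -1.22. The other chain of collagen I, COL1A2, did not pass (-0.29, edgeR adjusted p = 0.0713), with overlap of the groups. ELN was not set against COL1A2.

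The emilins are glycoproteins at the boundary of elastin and microfibril, and EMILIN1 also binds the precursor of TGF-beta. Emilin2 had the lowest log2 fold change of the 10, -1.88 ± 0.12 (SE; adjusted p = 1.40e-07), lower than in all but 1.08% of the genes tested. It stood at 268, 231, 257, 197 and 203 CPM in control libraries 1 to 5 and at 64.0, 56.7, 78.1, 55.0 and 60.0 CPM in myopia libraries 1 to 5. Emilin1 stood at 256, 219, 262, 219 and 189 CPM in control and at 88.1, 93.2, 91.9, 82.2 and 92.6 CPM in myopia, and the log2 fold change, -1.35 ± 0.10, had an adjusted p of 2.67e-07. Its myopia libraries were tightly grouped, with a coefficient of variation of 5.15% against 13.1% in control.

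Fibulin 1 and fibulin 2 are larger fibulins that bind fibronectin, basement membranes and, in the case of fibulin 2, tropoelastin and fibrillin. Fbln1 stood at 3479, 3088, 3013, 2868 and 2401 CPM in control libraries 1 to 5 and at 1573, 1512, 1431, 1009 and 1238 CPM in myopia. The groups did not overlap, and control 5 and myopia 4 were the low ends of their groups. The log2 fold change was -1.13 ± 0.15 (SE; adjusted p = 1.35e-05). Fbln2 went from 407 ± 27.4 to 195 ± 12.4 CPM (mean ± SD, n = 5), or -1.06 ± 0.09 on the log2 scale (adjusted p = 5.04e-07), with control libraries between 379 and 446 CPM and myopia libraries between 175 and 208 CPM.

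Fbln5 encodes the short fibulin that tethers elastin to cells through integrins and is needed for elastic fibre assembly. Its control libraries were nearly alike, from 192 CPM in control 1 to 198 CPM in control 4 and slightly above that in control 5, a coefficient of variation of 1.74%. The myopia libraries spread more, at 134, 154, 139, 105 and 119 CPM (14.5%), all of them below control. The log2 fold change was -0.59 ± 0.10 (SE; adjusted p = 0.000137).

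EFEMP2 (fibulin 4), which elastin cross-linking by lysyl oxidase depends on, and EFEMP1 (fibulin 3), a fibulin of fascia and of the eye, did not pass. EFEMP2 stood at 347, 323, 311, 288 and 240 CPM in control libraries 1 to 5 and at 233, 248, 254, 260.0 and 286 CPM in myopia. The groups overlapped through control 5, and the log2 fold change was -0.24 ± 0.11 (SE; adjusted p = 0.0612). It passed as lower with RLE factors, DESeq2, limma-voom with sample weights and when control 5 was left out (-0.30, adjusted p = 0.00825) or myopia 5 (-0.28, adjusted p = 0.0467), and as higher with total count alone. EFEMP1 stood at 95.1, 103, 106, 85.2 and 143 CPM in control and at 131, 127, 172, 108 and 112 CPM in myopia, the one member with a positive log2 fold change (0.29 ± 0.15, adjusted p = 0.1). It passed as higher with total count alone, with limma-voom and without control 5 (0.43, adjusted p = 0.00698), whose EFEMP1 level was above that of 4 of 5 myopia libraries.

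Fibrillins are the long proteins that polymerise into microfibrils, FBN1 through life and FBN2 mostly during development. Fbn1 stood at 595, 577, 632, 713 and 866 CPM in control libraries 1 to 5 and at 615, 679.6, 609, 391 and 471 CPM in myopia. Only myopia 4 and 5 lay below all control libraries, and the log2 fold change was -0.29 ± 0.16 (SE; adjusted p = 0.12). FBN2 stood at 86.6, 74.6, 76.2, 88.9 and 102 CPM in control and at 86.8, 106, 69.6, 57.5 and 66.4 CPM in myopia, and the log2 fold change, -0.15 ± 0.15, had an adjusted p of 0.39. For both fibrillins myopia 1 and 2 lay within or above the control range and myopia 4 was lowest. When single libraries were left out, the log2 fold change of Fbn1 ran from -0.38 (without myopia 2) to -0.18 (without control 5) and that of FBN2 from -0.29 (without myopia 2) to -0.06 (without myopia 4), and neither passed.

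Ratios of counts within a library do not depend on the scaling between libraries and show whether 2 members changed unequally. The 9 ratios of ELN share its counts, so they are not independent. How often a ratio of ELN to any other gene would differ was not computed. Of 13 ratios tested (exact permutation test over all assignments of libraries to groups, two-sided, smallest possible p 0.00794, Benjamini-Hochberg adjustment over the 13), 7 differed between the groups. ELN fell relative to Fbn1 by 1.13 on the log2 scale, relative to FBN2 by 1.26, to EFEMP2 by 1.20, to EFEMP1 by 1.72 and to Fbln5 by 0.83, each with no overlap between the groups and an adjusted p of 0.0172 in the exact permutation test. ELN relative to Fbln2 fell by 0.37 (adjusted p = 0.0295, exact permutation test), with overlap, and that call ended without control 1, 2, 3 or 4 or myopia 1, 2, 3 or 4 (adjusted p = 0.0516 to 0.059). All 5 myopia libraries thus held fewer elastin reads per read of either fibrillin, Fbln5, EFEMP1 or EFEMP2 than any control library did.

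The ratios of ELN to Emilin1, Fbln1 and Emilin2 did not pass, and the groups overlapped. The log2 ratio of ELN to Emilin1 was 2.57 ± 0.18 in control and 2.49 ± 0.15 in myopia (SD, n = 5; adjusted p = 0.49, exact permutation test), that to Fbln1 -1.13 ± 0.20 and -1.41 ± 0.35 (adjusted p = 0.186, exact permutation test), and that to Emilin2 2.56 ± 0.21 and 3.01 ± 0.30 (adjusted p = 0.0516, exact permutation test). The ratio to Emilin2 passed without control 5 (a difference of 0.49, adjusted p = 0.0459, exact permutation test), without myopia 3 (0.57, adjusted p = 0.0295) and without control libraries 4 and 5 (0.60, adjusted p = 0.0464). Of the pairs of relatives, Emilin2 fell relative to Emilin1 by 0.54 (adjusted p = 0.0172, exact permutation test), from 0.01 ± 0.10 to -0.52 ± 0.19, with no overlap. The difference was 0.13 for FBN2 to Fbn1 (adjusted p = 0.225, exact permutation test), 0.08 for Fbln2 to Fbln1 (adjusted p = 0.595, exact permutation test) and -0.52 for EFEMP2 to EFEMP1 (adjusted p = 0.115, exact permutation test). The difference for Fbln2 to Fbln1 ran from 0.013 to 0.19 when single libraries were left out, and it was 0.26 and passed without control libraries 4 and 5 (adjusted p = 0.0464, exact permutation test). That for EFEMP2 to EFEMP1 passed without control 5 (-0.71, adjusted p = 0.0258, exact permutation test), the control library with the most EFEMP1 and the least EFEMP2.

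**Figure D3:**
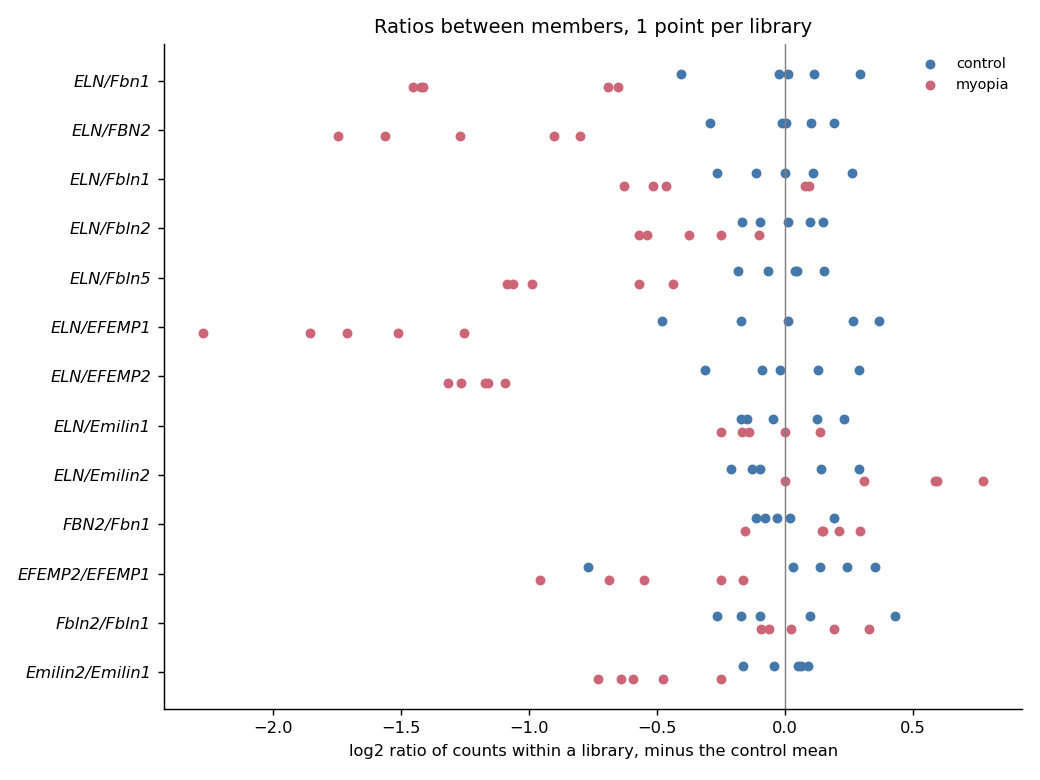
Log2 ratio of the counts of 2 members within each library, drawn as the difference from the control mean of that ratio. Each point is 1 library (blue control, red myopia). The ratios of ELN to both fibrillins, Fbln5, EFEMP1 and EFEMP2 and that of Emilin2 to Emilin1 separate the groups.

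Summed, the 10 genes took up 0.56% ± 0.027 of the reads counted for lines with a symbol in the control libraries and 0.39% ± 0.03 in the myopia libraries (SD, n = 5), a difference of -0.17 percentage points (p = 0.00794, exact permutation test, the smallest this design can give). This share rests on total counts without TMM factors, unlike the CPM above. In TMM-scaled CPM the sum of the 10 was 6110 to 7193 in control and 2731 to 3674 in myopia, a larger relative fall. Within that pool of reads the make-up shifted. As a share of the pool, Fbn1 reads went from 10.4% ± 2.32 to 16.4% ± 1.85 and EFEMP2 reads from 4.59% ± 0.443 to 7.76% ± 1.34, both without overlap of the groups, and Emilin2 reads went from 3.52% ± 0.339 to 1.88% ± 0.257, also without overlap. ELN reads went from 20.6% ± 1.33 to 15.2% ± 2.78, with overlap through myopia 5. With TMM factors Fbn1 and EFEMP2 themselves had log2 fold changes of -0.29 and -0.24 that did not pass, so their shares grew within a smaller pool. Fbln1 held the largest share, 45.2% ± 3.78 in control and 40.2% ± 2.66 in myopia, with overlap. The shares of FBN2, Fbln5 and EFEMP1 were also higher and that of Emilin1 lower, without overlap, and that of Fbln2 overlapped. These shares count reads, of which a longer transcript gives more, and were not tested.

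The genes whose profile over the 10 libraries was most like that of ELN, by the mean absolute difference in log2(CPM + 1) after centring each gene on its mean (9617 genes of at least 10 CPM), were LOXL1 (0.12), Tuba1b (0.12), Emilin1 (0.13), Otub1 (0.13) and EMC8 (0.14). For Fbn1 they were CENPE (0.088), PLAT (0.096), Igsf3 (0.11), ERGIC1 (0.11) and COLEC12 (0.11). No other member was among the 5 nearest to Fbn1. The centring keeps the difference between the groups, so this distance depends in large part on the log2 fold change. That ran from -1.35 to -1.23 in the 5 genes like ELN and from -0.25 to -0.19 in the 5 like Fbn1. Likeness within a group, apart from that difference, was not examined.

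Beyond the 10, a list of 57 other genes of the elastic fibre was examined by role. Of these 56 were in the table and 54 were tested, with MMP7 and MMP12 under the filter, and 24 fell, 17 rose and 13 did not pass. That is 44.4% lower beside 35.1% of all genes and 31.5% higher beside 36.9%, with a median log2 fold change of -0.24. With total count alone, 14 of these genes were called lower and 23 higher, where 2751 of all 14683 genes tested were lower and 7633 higher.

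Among microfibril-associated proteins and latent TGF-beta binders 4 of 8 fell, 3 rose and 1 did not pass (likewise 4 and 3 with total count alone). That is 50.0% lower and 37.5% higher, beside 35.1% and 36.9% of all genes. MFAP2, a small protein of the microfibril surface, fell from between 347 and 604 CPM in control to between 144 and 202 CPM in myopia, with a log2 fold change of -1.53 ± 0.15 (SE). LTBP4, a latent TGF-beta binder that also takes part in elastin assembly, fell as did Ltbp3, their log2 fold changes being -1.06 ± 0.12 and -0.90 ± 0.12. MFAP3 rose by 1.29 ± 0.12. Among further fibulin and emilin relatives 3 of 7 fell and 3 rose, or 42.9% each way (2 and 3 with total count alone). HMCN1 (hemicentin 1), a giant fibulin relative, rose by 2.29 ± 0.15, from 27.2 ± 6.40 to 133 ± 13.3 CPM, whereas MMRN2 (multimerin 2, of the endothelium), EMILIN3 and FBLN7 fell, at log2 fold changes of -1.06 ± 0.15, -0.87 ± 0.14 and -0.73 ± 0.15. The fall of FBLN7 did not pass with total count alone (-0.28, adjusted p = 0.0505).

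Of 6 cross-linking genes 2 fell and 2 rose, or 33.3% each way, beside 35.1% lower and 36.9% higher among all genes, and with total count alone 1 was lower and 3 were higher. LOXL1, the lysyl oxidase most tied to elastin, stood at 495, 490.1, 468, 504.5 and 415 CPM in control libraries 1 to 5 and at 179, 202, 196, 175 and 211 CPM in myopia, a log2 fold change of -1.30 ± 0.09 (SE; adjusted p = 2.53e-07). Lox, which cross-links both collagen and elastin, went the other way, with every myopia library (65.9 to 84.1 CPM) above every control library (11.2 to 38.8 CPM). Its log2 fold change was 1.77 ± 0.30 (SE; adjusted p = 0.000174). The control group was not homogeneous for Lox, which rose in order through control libraries 1 to 5 (11.2, 12.2, 18.8, 28.25 and 38.8 CPM). The log2 fold change of Loxl2, -0.33 ± 0.11 (adjusted p = 0.013), turned to 0.11 with total count alone. ATP7A, the copper pump that loads these enzymes, had 1 to 39 counts in the control libraries and 364 to 576 in myopia, and rose. LOXL3 and Loxl4 did not pass, though LOXL3 passed as higher with total count alone (0.29, adjusted p = 0.0122).

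Of the elastin-degrading proteases 3 of 7 tested fell and 0 rose with TMM factors (0 higher also at an unadjusted p under 0.05, with DESeq2 and with limma-voom), against 2 lower and 3 higher with total count alone. With TMM factors 42.9% thus fell, beside 35.1% lower and 36.9% higher among all genes. Elane, CTSK, CTSL and CTSS did not pass (-0.42, -0.06, 0.03 and 0.06 on the log2 scale). CTSK, CTSL and CTSS were the 3 that were higher with total count alone. MMP2, Mmp14 and MMP9 had log2 fold changes of -0.74 ± 0.15, -0.69 ± 0.16 and -2.49 ± 0.40 (SE), the last from 3.19 ± 0.87 to 0.561 ± 0.3 CPM, and Mmp14 did not pass with total count alone (-0.25, adjusted p = 0.126). Of receptors for elastin and microfibrils 5 of 10 fell and 5 rose, or 50.0% each way (2 and 5 with total count alone). The integrin chains ITGB8 (from 1.96 ± 1.26 to 43.6 ± 11.7 CPM) and ITGAV (0.96 ± 0.08 on the log2 scale) rose, while CTSA, a lysosomal protease of the elastin receptor complex, and ITGA5 fell (-1.05 ± 0.11 and -0.71 ± 0.11 on the log2 scale), the latter not passing with total count alone (-0.25, adjusted p = 0.0887).

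Among ADAMTS and ADAMTS-like genes linked to microfibrils 4 of 8 fell and 3 rose (2 and 4 with total count alone). That is 50.0% lower and 37.5% higher, beside 35.1% and 36.9% of all genes. On the log2 scale ADAMTSL5 and ADAMTSL2 changed by -1.19 ± 0.14 and -1.15 ± 0.20 and ADAMTS6 and ADAMTSL3 by 0.83 ± 0.23 and 0.72 ± 0.15. Of 8 proteoglycans and other proteins bound to microfibrils 3 fell and 1 rose, or 37.5% and 12.5% (1 and 2 with total count alone). Bgn (biglycan), TGFBI and Matn2 had log2 fold changes of -1.71 ± 0.17, -0.56 ± 0.12 and -0.36 ± 0.08, of which TGFBI did not pass with total count alone (-0.12, adjusted p = 0.316) and Matn2 turned to 0.09. DCN (decorin) rose by 0.42 ± 0.17 (adjusted p = 0.0377), a call that ended with RLE factors and without control 3 or myopia 1, 2 or 3 (adjusted p = 0.0512 to 0.118).

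**Figure D4:**
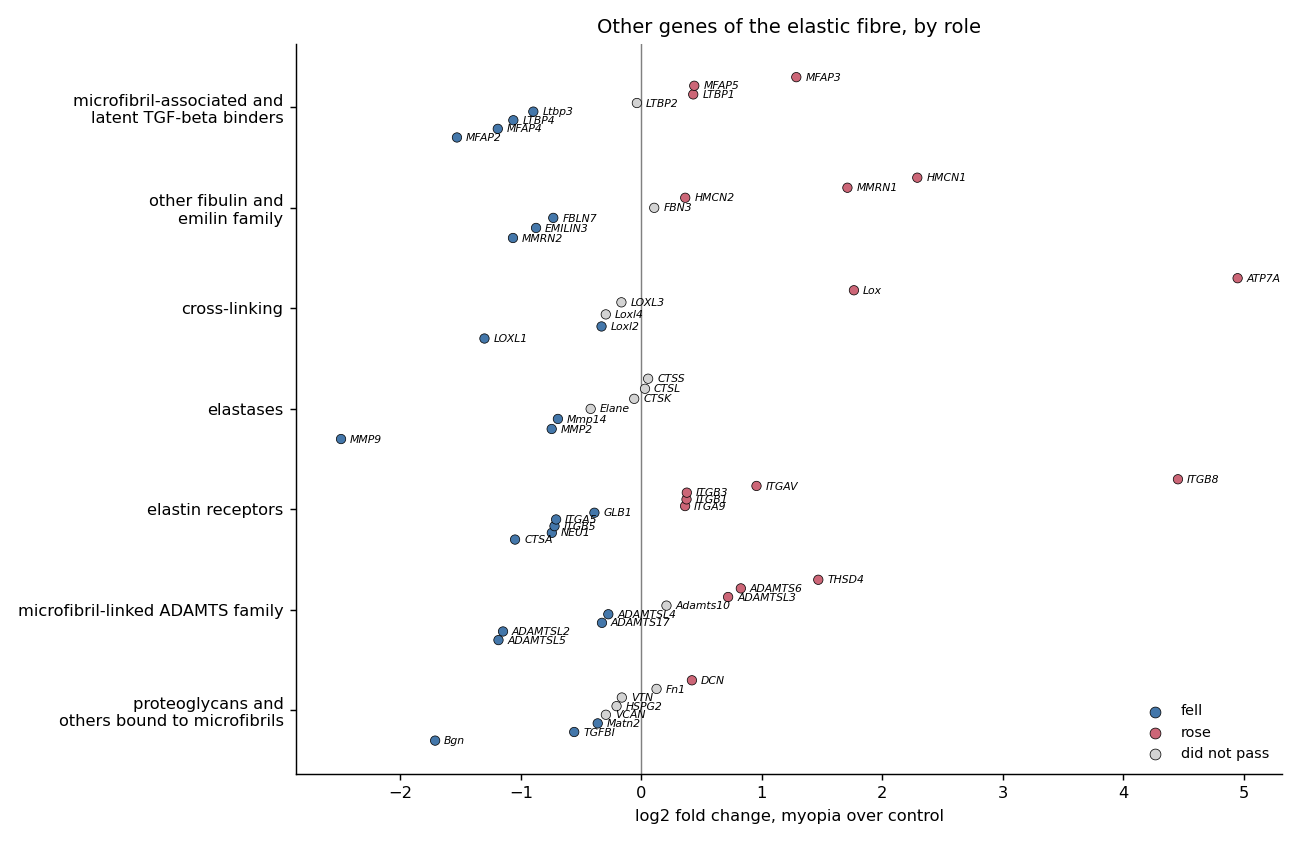
Log2 fold change of myopia over control for the 54 tested genes of the list, in rows by role, each point 1 gene (blue fell, red rose, grey did not pass at an adjusted p of 0.05 with TMM factors). Every row but that of the elastases holds genes on both sides of 0 that passed.

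The counts of cell type markers below stand beside 35.1% of all genes lower and 36.9% higher with TMM factors. With total count alone 2751 of all 14683 genes were lower and 7633 higher. Markers of the scleral fibroblast were abundant in all libraries, with COL1A1 at 31350 CPM or more. Of 8 such markers 4 fell, 1 rose and 3 did not pass, and their summed level was 118702 to 148972 CPM in control and 64985 to 84944 CPM in myopia (2 lower and 3 higher with total count alone). The collagen chains COL1A1, COL1A2 and Col3a1 made up 94.0% to 96.8% of that sum, and the other 5 markers together stood at 4516 to 5171 CPM in control and 3547 to 4395 CPM in myopia. Among those, PDGFRA rose (0.64 on the log2 scale), DPT and VIM fell (-0.62 and -0.44), and LUM (0.33) and PDGFRB (-0.10) did not pass. Of 7 markers of vascular smooth muscle, a further source of elastin, 4 fell and 3 (MYH11, Acta2 and Lmod1) did not pass. Those that fell were CNN1, DES, TAGLN and Smtn (-1.20, -0.98, -0.65 and -0.47 on the log2 scale). The sum of the 7 was 1495 to 2240 CPM in control and 1194 to 1831 CPM in myopia (1 marker lower and 2 higher with total count alone). With TMM factors 2 of 6 endothelial markers fell and 2 rose, and 0 fell and 3 rose with total count alone (sums of 951 to 1178 and 752 to 1134 CPM). All 5 macrophage markers and all 4 red blood cell markers fell, under either scaling, with sums of 683 to 1058 against 194 to 281 CPM and of 2504 to 10560 against 100.1 to 456 CPM. With TMM factors, of tendon markers 1 of 3 fell and 2 rose, of skeletal muscle 4 of 7 fell, of photoreceptor 3 of 5 fell, of melanocyte 3 of 5 fell and 1 rose, of retinal pigment epithelium 2 of 4 rose, of cartilage 1 of 4 fell and 1 rose, and of adipocyte 0 of 3 passed. With total count alone 1 skeletal muscle marker and 1 photoreceptor marker were lower, 1 melanocyte marker was lower and 1 higher, 1 tendon marker was lower and 2 higher, 2 markers of the retinal pigment epithelium and 1 of cartilage were higher, and 0 of adipocyte passed. No marker was at 0 in all 10 libraries. The part of these cell types in the levels of the elastic fibre genes was not tested.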

How the data were processed

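RNA-seq of sclera from 5 control and 5 myopia eyes was used as raw counts of reads per gene symbol, as deposited by the authors in 1 table with a column per library. Libraries were made with a SMARTER mRNA kit, per the labels' protocols. The submitters' processing notes name the mouse builds GRCm38 and mm10 with no role. No source used here gives the aligner, the counter, the annotation or the strand setting, so reads of overlapping genes cannot be separated, and no coordinate or length is printed. Columns were matched to samples by name. The 437 lines without a symbol (0.751% to 1.69% of counts) were left out, and each other line was tested as its own gene.

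All 14683 genes kept by filterByExpr (minimum count 10, minimum total 15) entered the quasi-likelihood fit of edgeR 4.0.16 (R 4.3.3; glmQLFit with robust estimation, then glmQLFTest on the group term, libraries scaled by TMM), and p-values were adjusted over all of them with a threshold of 0.05. SE was derived as the absolute log2 fold change over the root of F. Ratios used counts + 0.5 and exact permutation tests (scipy 1.17.1). Alternatives were other scalings and filters, DESeq2 1.42.0, limma 3.58.1 (voom with sample weights), a replicate block, summed lines of a symbol, and libraries left out. The test was tested on simulated data for the 14683 genes of this comparison and found 74% of genes changed 2-fold and 92% of those changed 4-fold, with 12 unchanged genes called. That simulation changed 100 genes at each fold, up or down at random, and left all others unchanged, whereas 71.9% were called here. It therefore cannot show how the scaling or the number of false calls behaves when most genes differ. No 2 libraries of a group were alike within sampling noise (smallest chi-square over its degrees of freedom 18.1).

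The members, lists and alternatives were chosen with earlier results of these data known. Every member is named, and from each role of the further list at most 4 genes past the threshold, by smallest p, plus the 5 genes most like ELN and Fbn1. The list entry ADAMTSL6 is another name of THSD4 and was counted once. LOXL3, Loxl4, Elane, CTSK, CTSL, CTSS, MMP7, MMP12 and the marker genes named were added outside this rule after their values were seen.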

Additional observations from a re-analysis of the deposited data

Results flagged for a closer look

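In groups of 5 libraries, a highest or lowest library set apart from the rest by more than 0.71 of the group's range was found in 6 of 102 groups of values examined, and chance flags about 1 in 20. Among the members, ELN in myopia 5 stood at 604.5 CPM with the next library at 501 CPM, and without that library its log2 fold change was -1.50. The log2 ratio of EFEMP2 to EFEMP1 was 0.745 in control 5 and at least 1.55 in the other control libraries. Control 5 was also set apart for FBLN7 at 687 CPM (next 988 CPM), for Ltbp3 at 616 CPM (next 779 CPM) and for ITGAV at 125.9 CPM (next 118 CPM). ITGAV was likewise set apart in myopia 1, at 269 CPM (next 224 CPM).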

How the results depend on the processing

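The 6 falls of members kept their direction and passed under every alternative run except Fbln5 with total count alone. The number of members called higher went from 0 to 2 with total count alone (EFEMP1 and EFEMP2), to 1 with limma-voom and to 1 without control libraries 4 and 5, and was 0 to 1 when single libraries were left out. Members called lower numbered 6 to 7 when single libraries were left out. With total count alone the number of other elastic fibre genes called lower went from 24 to 14, and Fbn1 (0.13), FBN2 (0.28), EFEMP2 (0.23), Loxl2 (0.11) and Matn2 (0.088) changed sign, since that scaling moves all genes up. The ratio of ELN to Emilin1 changed sign without control libraries 4 and 5 (0.037), and under it those of ELN to Emilin2 (0.60), EFEMP2 to EFEMP1 (-0.70) and Fbln2 to Fbln1 (0.26) passed (adjusted p = 0.0464 each, exact permutation test); the cause was not tested. Of the 13 ratios, 6 to 9 passed when single libraries were left out.

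Control and myopia eyes came from different animals, so a shared number cannot mean a shared animal, and the numbers were not taken as pairs. Same-numbered libraries also did not deviate together (correlations of -0.129 to 0.013 over 5 pairs, and 0 control libraries correlated best with their own number). Whether eyes within a group shared an animal is not stated, and neither these correlations nor the replicate block can show it. With the replicate block 6 members were called lower, 0 higher and 10103 genes in all, and of the genes named DCN no longer passed (adjusted p = 0.0704). A sign-flip test over 5 pairs cannot give a p below 0.0625, which the summed share reached (-0.17), so in that replicate block 0 of 13 ratios passed. The planned correction for protein length was not run, alone or with the block, for want of lengths. Depth does not limit the members, which had at least 2013 counts each.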
